A study of Mus musculus with 30 samples.

Results

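Hearts of mice at embryonic day 18.5 (E18.5), shortly before birth, were compared with hearts at embryonic day 16.5 (E16.5) across all genes. The comparison used the 6 libraries that the labels assign to these ages, 3 per age, out of 30 libraries at 10 ages. Every animal was wild type (WT) and untreated, so age was the only labelled difference. RNA was extracted from heart and enriched for messenger RNA with poly-T beads. The labels give no strain, do not tell whether an age's 3 libraries are 3 animals, and do not name the parts of the heart that were taken. The p-values for genes therefore describe the spread among libraries of the same age, pooled over all 30 libraries, and this spread may be technical. Of the 48820 genes in the table, 19280 had enough counts to be tested.

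In the last days of gestation the mouse heart pumps against a circulation that bypasses the lungs, at low oxygen and with glucose and lactate as its main fuels. Its muscle cells still divide, but they are also building the sarcomeres, calcium stores, ion channels and mitochondria of the postnatal heart. The switch to burning fatty acids is completed after birth, when milk supplies fat and oxygen rises. Blood in the chambers carries red cells made by the yolk sac early on and by the fetal liver later.

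The tissue label was checked against heart muscle transcripts. Actc1, cardiac actin, stood at 7040 to 7439 CPM at E16.5 and at 7298 to 8203 CPM at E18.5, where CPM (counts-per-million) uses library sizes adjusted by edgeR's TMM factors. All 12 cardiomyocyte markers were measured at both ages. Of markers of neighbouring tissues, Myod1, Myf6 and Pax7 of skeletal muscle and Ucp1, Elovl3, Retn and Otop1 of fat had no count in any of the 6 libraries. Airway transcripts were present in part of the E18.5 libraries. The summed level of 12 lung and airway markers, 8 of them tested, was 1.18 to 2.15 CPM at E16.5. At E18.5 it was 15.2, 34.4 and 1.41 CPM in replicates 1, 2 and 3. Scgb3a2, a secretoglobin of airway epithelium, was the largest rise by rule (log2 change 7.66 ± 2.36 SE, adjusted p = 0.023). It stood at 11.8 and 26.8 CPM in E18.5 replicates 1 and 2, at 0.226 CPM in replicate 3 and at no more than 0.187 CPM at E16.5. Its call was lost without E18.5 replicate 2 and without any single E16.5 library. Scgb3a1 (5.96, 18.9 and 0.0847 CPM) and Muc5b (14.4, 56.1 and 0.706 CPM), an airway secretoglobin and a mucin, had the same order over the E18.5 libraries.

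The 6 libraries held 25550620 to 37783599 counts. Transcripts of the X-inactivating Xist and of Y-linked genes put E16.5 replicate 2 with E18.5 replicates 1 and 3, and the other libraries together, so sex was mixed within both ages. With sex as a covariate, 4287 genes were called. The make-up of the libraries differed between the ages by gene length. Genes of 6000 or more exon bases took 45.5% to 47.1% of the counts at E16.5 and 52.1% to 53.4% at E18.5, and genes under 1000 bases took 2.05% to 2.26% and 1.54% to 1.65%. Rn7sk, a short non-polyadenylated RNA that poly-T selection should leave behind, stood at 19913 to 22428 CPM at E16.5 and at 13276 to 14061 CPM at E18.5, both before TMM scaling. The E16.5 libraries stood apart from both neighbouring ages. Long genes took at least 49.2% of the counts at E14.5 and 51.7% to 54.2% at P1, and Rn7sk was at 10768 to 16154 and 11680 to 16298 CPM. Among protein-coding genes the median log2 change rose from -0.21 in the quintile with the shortest exons to 0.15 in the quintile with the longest. In the shortest quintile 4.5% were called higher and 19.4% lower, and in the longest quintile 31.2% and 6.4%. Age and the make-up of the libraries cannot be told apart here. Counts of calls are also given after the length trend of each library was removed.

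**Figure D1:**
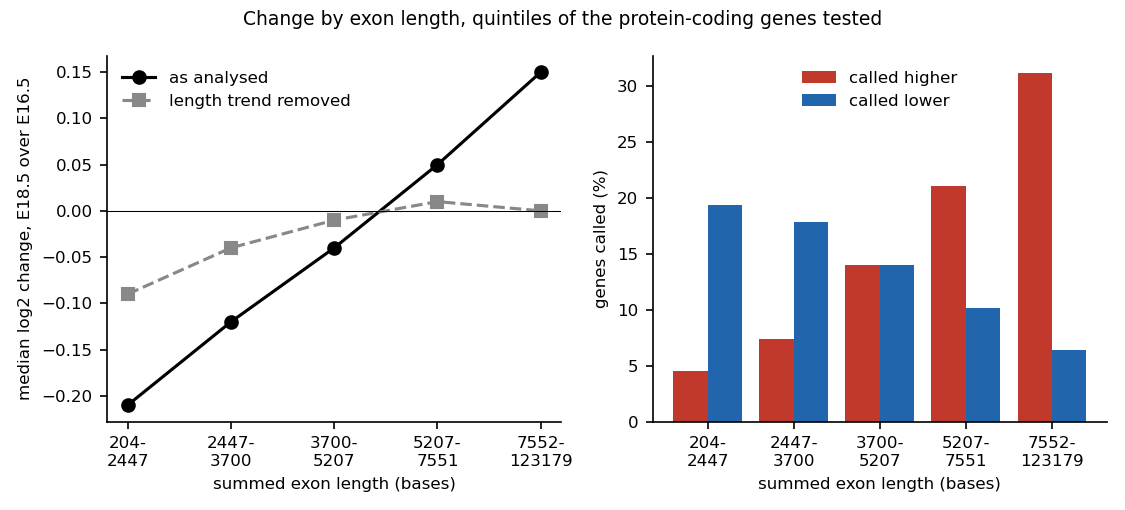
Left, median log2 change from E16.5 to E18.5 in quintiles of the protein-coding genes tested, by summed exon length in bases, as analysed (black circles) and with the length trend of each library removed (grey squares). Right, the percentage of genes called higher (red) and lower (blue) in the same quintiles. The median runs from -0.21 in the shortest to 0.15 in the longest quintile as analysed, and from -0.09 to 0.00 with the trend removed.

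A gene was called where the edgeR quasi-likelihood test gave an adjusted p under 0.05, over all 19280 genes. From E16.5 to E18.5, 2507 genes (13%) rose and 2162 (11.2%) fell, which made 4669 calls (24.2%). Calls in each gene list below are to be read against these 13% and 11.2%. The libraries of the ages did not overlap for 4291 genes that were higher (22.3%) and 4625 that were lower (24%). Changes were mostly small. Only 308 rises (1.6%) and 220 falls (1.14%) reached 2-fold. The balance of rises and falls depended on scaling, with 1825 rises and 2764 falls when library size alone was used and 2812 and 1850 with RLE size factors. A fit to the 6 libraries alone called 3493 rises and 3498 falls. With the length trend removed, 4025 genes were called, of which 3458 were among the 4669. E18.5 replicate 3 carried the most weight: without it 3104 genes were called, 1906 higher and 1198 lower.

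**Figure D2:**
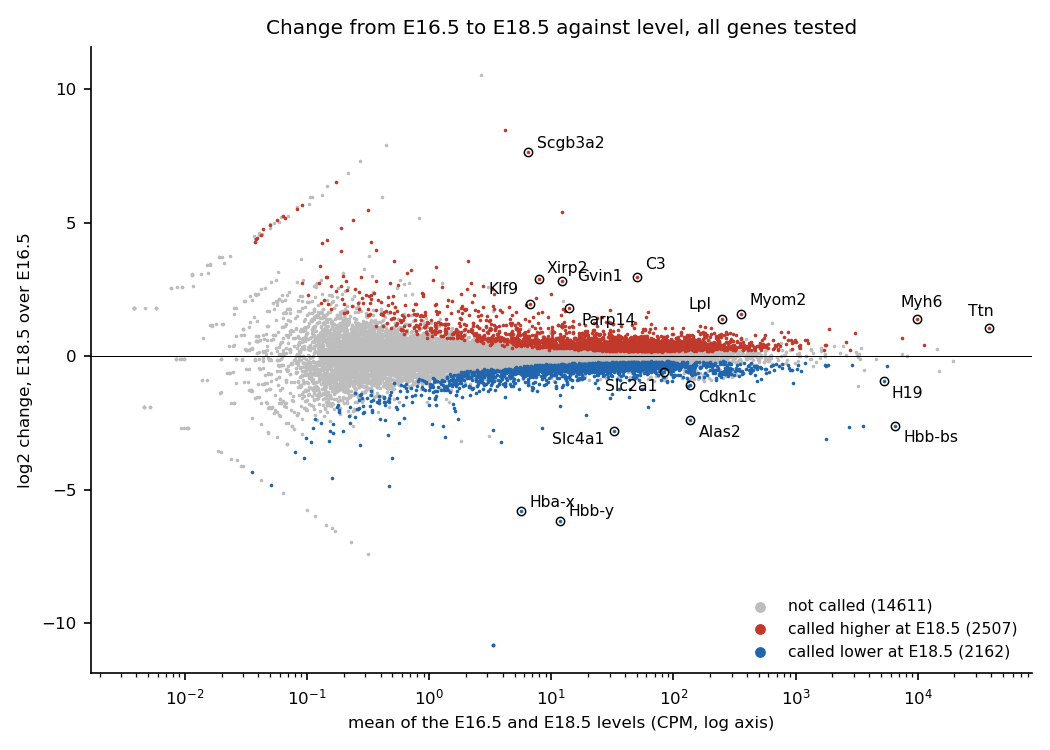
Log2 change from E16.5 to E18.5 (vertical axis) against the mean of the levels at the 2 ages (CPM, log axis) for the 19280 genes tested. Red points are the 2507 genes called higher, blue points the 2162 called lower, and circles mark genes named in the text. The labelled globin and red cell genes are among the largest falls, and Myh6 and Ttn are the most abundant of the labelled genes.

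The genes with the largest rises by rule came from several programs. Apart from Scgb3a2 they were C3 (complement), Xirp2 (a protein of the intercalated disc), Gvin1 and Parp14 (interferon-inducible), Cp (ceruloplasmin, a copper oxidase), Klf9 (a hormone-responsive transcription factor), Lgals3bp (a secreted glycoprotein), Plin4 (a lipid droplet coat protein), Col5a3 (a collagen chain), Lepr (the leptin receptor) and Ckmt2 (mitochondrial creatine kinase of muscle). C3 stood at 13.7, 11.5 and 9.18 CPM at E16.5 and at 72.0, 107 and 88.5 CPM at E18.5 (log2 change 2.96 ± 0.23 SE, adjusted p = 1.6e-08). Xirp2 went from 1.59, 2.23 and 1.79 to 11.4, 12.4 and 17.9 CPM (2.89 ± 0.29, adjusted p = 2.6e-07). Klf9 went from 2.58, 2.74 and 3.03 to 9.69, 10.7 and 11.7 CPM (1.95 ± 0.13, adjusted p = 5.7e-12). No overlap between the ages was part of the rule that chose these genes. All 12 leading falls were transcripts of red cells or known to be abundant in them.

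Contractile genes of the adult heart were higher and few of them lower. Of 20 adult sarcomere genes, 11 rose and none fell (median log2 change 0.31, against -0.02 over all genes tested, of which 13% rose and 11.2% fell). With the length trend removed, 9 rose. Many of these genes are long, so they belong to the class in which rises were most frequent. Myh6, the fast heavy chain of adult mouse myosin, stood at 5878, 5024 and 5626 CPM at E16.5 and at 14793, 13882 and 14484 CPM at E18.5. This is a rise by 1.39 ± 0.11 on the log2 scale (adjusted p = 3.2e-10), with every E18.5 library above every E16.5 library. Myh7, the slow heavy chain that dominates before birth, was at 20155 to 21437 and then 17656 to 18933 CPM (-0.18 ± 0.21, adjusted p = 0.59). Myh6 thus made up no more than 21.6% of the counts of both chains in any E16.5 library and 43.9% to 44.5% at E18.5. The exact two-sided permutation test of this share gave p = 0.1, the smallest that 3 against 3 libraries allow (adjusted p = 0.114 over 8 shares). The share had been 27.1% at E14.5, so it was lower at E16.5 than at either neighbouring age, and it reached 73.6% at P1, the day after birth.

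Ttn, the molecular spring of the sarcomere and the most abundant of these transcripts, was at 25338, 23926 and 25829 CPM and then at 51574, 48644 and 55843 CPM (1.05 ± 0.17, adjusted p = 2.8e-05). Its exons sum to 116825 bases, which puts it in the longest quintile. Myom2, an M-band protein of fast and adult muscle, went from 202, 160 and 167 to 574, 531 and 502 CPM (1.6 ± 0.16, adjusted p = 8e-08). Tnni3, the adult cardiac troponin I, rose from 925 to 939 CPM at E16.5 to 1163 to 1256 CPM at E18.5 (0.38 ± 0.08, adjusted p = 0.0011). Nebl, Myoz2, Myom1, Actn2, Ldb3 and Tpm1 were also among the rises. Mybpc3, myosin-binding protein C, was among the 9 that were not called (0.14 ± 0.11, adjusted p = 0.37).

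Fetal and skeletal-type contractile genes did not move as a block. Of 19 tested, 2 rose (10.5%) and 3 fell (15.8%), where 13% and 11.2% of all genes tested did. With the length trend removed the numbers were 2 and 2. Tnnt1, the slow skeletal troponin T, fell from 79.2, 62.5 and 91.2 CPM to 33.8, 35.6 and 31.4 CPM (-1.21 ± 0.13, adjusted p = 2.1e-07). Myl4, the atrial and fetal light chain, fell by 0.48 ± 0.14 (adjusted p = 0.011), a call lost without E18.5 replicate 3. Tnni2, fast skeletal troponin I, fell from 3.21 to 4.98 CPM to 2.18 to 2.82 CPM, a call lost with the length trend removed. The fetal troponin Tnni1 was at 1456 to 1652 and then 1173 to 1255 CPM, without overlap but not called (-0.35 ± 0.15, adjusted p = 0.096). Ankrd1, a stretch-responsive protein of the sarcomere, rose from 358 to 438 CPM to 659 to 764 CPM (0.81 ± 0.23, adjusted p = 0.013), and without E16.5 replicate 2 it was not called.

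**Figure D3:**
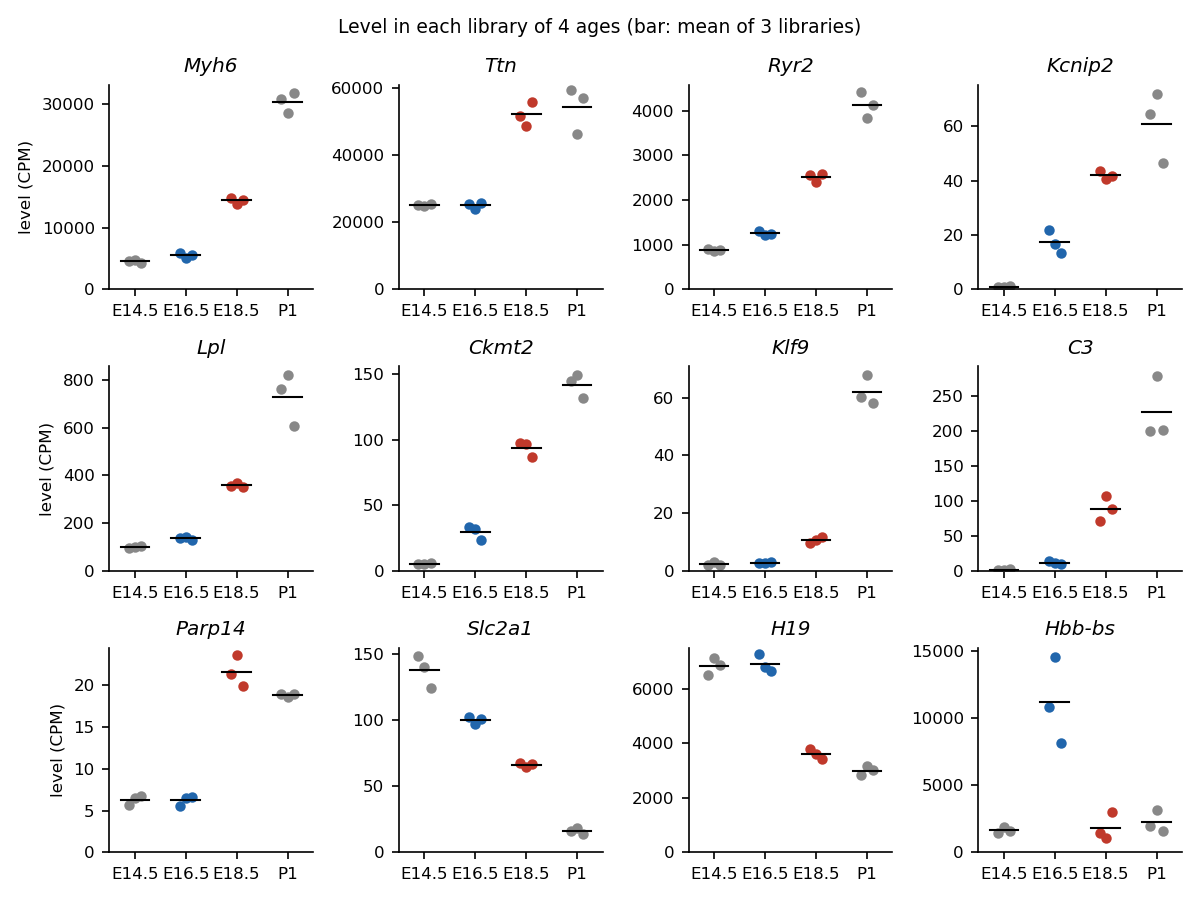
Level in CPM of 12 genes in each of the 3 libraries at E14.5, E16.5, E18.5 and P1. Points are libraries (E16.5 blue, E18.5 red) and bars are means of 3. Myh6, Ttn, Ryr2, Kcnip2, Lpl, Ckmt2, Klf9, C3 and Parp14 are higher in every E18.5 library than in any E16.5 library, while Slc2a1, H19 and Hbb-bs are lower.

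Genes that store and release calcium for contraction were higher in part. Of 20 in the list, 9 rose and none fell (median 0.38), and 10 rose and 1 fell with the length trend removed. Ryr2, the release channel of the sarcoplasmic reticulum, was at 1299, 1216 and 1247 CPM at E16.5 and at 2568, 2410 and 2579 CPM at E18.5 (1.01 ± 0.12, adjusted p = 3.9e-07). Atp2a2, the pump SERCA that refills the store, went from 2180, 2146 and 2196 to 4089, 3878 and 3950 CPM (0.87 ± 0.12, adjusted p = 2.8e-06). Its inhibitor Pln, phospholamban, went from 604, 604 and 606 to 967, 985 and 1039 CPM (0.72 ± 0.10, adjusted p = 2.9e-06). Pump and inhibitor were thus both raised, with library values that lay close together within each age. The store protein Casq2 rose from 678 to 720 CPM to 916 to 1040 CPM (0.46 ± 0.10, adjusted p = 0.00067), and its anchor Trdn, triadin, by 0.65 ± 0.16 (adjusted p = 0.0037). Slc8a1, the sodium-calcium exchanger that carries much calcium flux in the fetal heart, was higher in each E18.5 library (1199 to 1281 and then 1442 to 1499 CPM) without passing the test (adjusted p = 0.066).

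Among 30 ion channel and gap junction genes, 12 rose and 1 fell (median 0.20). With the length trend removed the numbers were 12 and 3. The largest rise was that of Kcnip2, the subunit needed for the fast transient outward potassium current of mouse ventricle, from 21.8, 16.7 and 13.5 CPM to 43.4, 40.7 and 41.6 CPM (1.27 ± 0.15, adjusted p = 1.2e-06). It had been at 1.03 CPM at E14.5. Abcc9, the regulatory subunit of the ATP-sensitive potassium channel, rose from 186, 197 and 186 to 367, 350 and 343 CPM (0.90 ± 0.15, adjusted p = 8.9e-05). It is expressed in mural cells as well as in muscle.

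Kcnj3, a subunit of the acetylcholine-gated channel of atria, rose by 0.86 ± 0.11 (adjusted p = 5e-07). The muscarinic receptor that opens this channel, Chrm2, rose beside it from 37.7, 37.8 and 36.3 CPM to 74.7, 74.8 and 79.8 CPM (1.04 ± 0.09, adjusted p = 8.9e-10). The ventricular connexin Gja1 rose from 345 to 366 CPM to 505 to 520 CPM (0.52 ± 0.11, adjusted p = 0.00081). Gja5, the connexin of atria and conduction fibres, was the 1 member that fell (-0.43 ± 0.14, adjusted p = 0.032), a call lost in most fits with 1 library less. Of 11 markers of the conduction system, 3 rose and 1 fell (median -0.26), where 13% and 11.2% of all genes tested did. Without overlap 6 were lower and 3 higher, against 24% and 22.3% of all genes tested. Cpne5 fell by 1.14 ± 0.18 (adjusted p = 3.7e-05). Cntn2, a marker of Purkinje fibres, rose from 0.435 to 0.726 CPM to 2.68 to 3.83 CPM (2.35 ± 0.28, adjusted p = 7.6e-07). The pacemaker channel Hcn4 was at 14.0 to 16.8 and then 10.7 to 12.2 CPM, not called (adjusted p = 0.087).

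Genes for energy supply split by pathway, where 13% of all genes tested rose and 11.2% fell. In the citric acid cycle and ketone use 14 of 25 genes rose and 1 fell (median 0.29). In fatty acid uptake and oxidation 8 of 32 rose and 2 fell (median 0.09). Among the nuclear genes of the respiratory chain 3 of 35 rose (8.6%, below the share of all genes) and none fell (median 0.05). With the length trend removed these were 14 and 0, 10 and 2, and 6 and 0. With library size alone the fatty acid list had 7 rises and 7 falls, so its balance rested on scaling.

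Of the cycle enzymes, Dld, the dehydrogenase subunit shared by several complexes, rose from 104, 119 and 129 CPM to 211, 201 and 219 CPM (0.84 ± 0.09, adjusted p = 3.3e-08). Sucla2, a succinyl-CoA ligase subunit, rose by 0.66 ± 0.09 (adjusted p = 1.7e-06), and Pdha1, the entry of pyruvate into the cycle, from 273 to 286 CPM to 427 to 445 CPM (0.65 ± 0.08, adjusted p = 5.8e-07). Oxct1, which lets the heart use ketone bodies, rose from 236, 249 and 232 to 424, 401 and 411 CPM (0.78 ± 0.12, adjusted p = 1.3e-05). It stood at 182 CPM at P1, below both prenatal ages. Idh2 was the 1 cycle gene that fell (-0.24 ± 0.08, adjusted p = 0.027), a call lost with the length trend removed and in most fits with 1 library less. In the respiratory chain, the complex I subunit Ndufs1, cytochrome c (Cycs) and Uqcrc2 rose by 0.44 ± 0.07, 0.41 ± 0.12 and 0.23 ± 0.08. The call of Uqcrc2 was lost with library size alone and in 4 of the 6 fits with 1 library less. The muscle isoforms Cox6a2 and Cox8b were not called (adjusted p = 0.089 and 0.11). Of 13 mitochondrially encoded mRNAs 2 rose, mt-Co1 and mt-Nd5, which is 15.4% and near the 13% of all genes tested. With the length trend removed 7 rose. The call of mt-Nd5 was lost with library size alone, with a sex term and without E16.5 replicate 1 or E18.5 replicate 3.

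Of the genes for uptake and activation of fatty acids, Lpl, Cd36, Acsl1 and Fabp3 rose, and Slc27a1, Slc27a6, Fabp4 and Gpihbp1 were not called. Lpl, lipoprotein lipase, which frees fatty acids from blood lipid, went from 136, 141 and 131 CPM to 356, 369 and 351 CPM (1.40 ± 0.10, adjusted p = 1.6e-11). Cd36, the uptake receptor, went from 173, 185 and 163 to 328, 297 and 312 CPM (0.84 ± 0.10, adjusted p = 1.1e-07). Acsl1, which activates fatty acids with coenzyme A, went from 161, 154 and 143 to 287, 282 and 267 CPM (0.87 ± 0.12, adjusted p = 1.5e-06). The lipid droplet gene Plin4 rose from 11.8 to 16.3 CPM to 44.0 to 48.0 CPM (1.74 ± 0.17, adjusted p = 1.4e-07). Inside the mitochondrion Acadm, the medium-chain dehydrogenase, rose by 0.49 ± 0.08 (adjusted p = 3e-05). Acadl and Acadvl, which handle longer chains, were not called (0.17 ± 0.07, adjusted p = 0.071, and 0.14 ± 0.08, adjusted p = 0.21). Cpt1b, the muscle form of the carnitine gate into mitochondria, was not called either (-0.20 ± 0.09, adjusted p = 0.11).

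Acot1, Angptl4, Cpt1a and Txnip fell at this step and had higher means at P1 than at either age. Acot1, a cytosolic thioesterase, went from 21, 20.4 and 19.5 to 9.14, 9.22 and 9.46 CPM, and to 86.8 CPM at P1 (-1.13 ± 0.14, adjusted p = 2.8e-07). Angptl4, a secreted inhibitor of lipoprotein lipase, went from 8.92, 10.4 and 10.1 to 4.15, 4.59 and 4.01 CPM, and to 56.7 CPM at P1 (-1.20 ± 0.21, adjusted p = 0.00014). The groups did not overlap in either gene. Cpt1a, the liver-type carnitine gate, fell from 86.7 to 88.9 CPM to 66.6 to 75.7 CPM (-0.32 ± 0.09, adjusted p = 0.0069) and averaged 283 CPM at P1. Txnip, an inhibitor of glucose uptake, fell by 0.72 ± 0.12 (adjusted p = 4.9e-05), from 391 to 456 CPM to 245 to 271 CPM, and averaged 1707 CPM at P1. Pdk4, an inhibitor of pyruvate dehydrogenase, was lower in each E18.5 library (39.8 to 42.1 and then 30.9 to 34.1 CPM) without being called (adjusted p = 0.24). The reads of the near-identical pair Acot1 and Acot2, which both fell, may have been split between them.

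**Figure D4:**
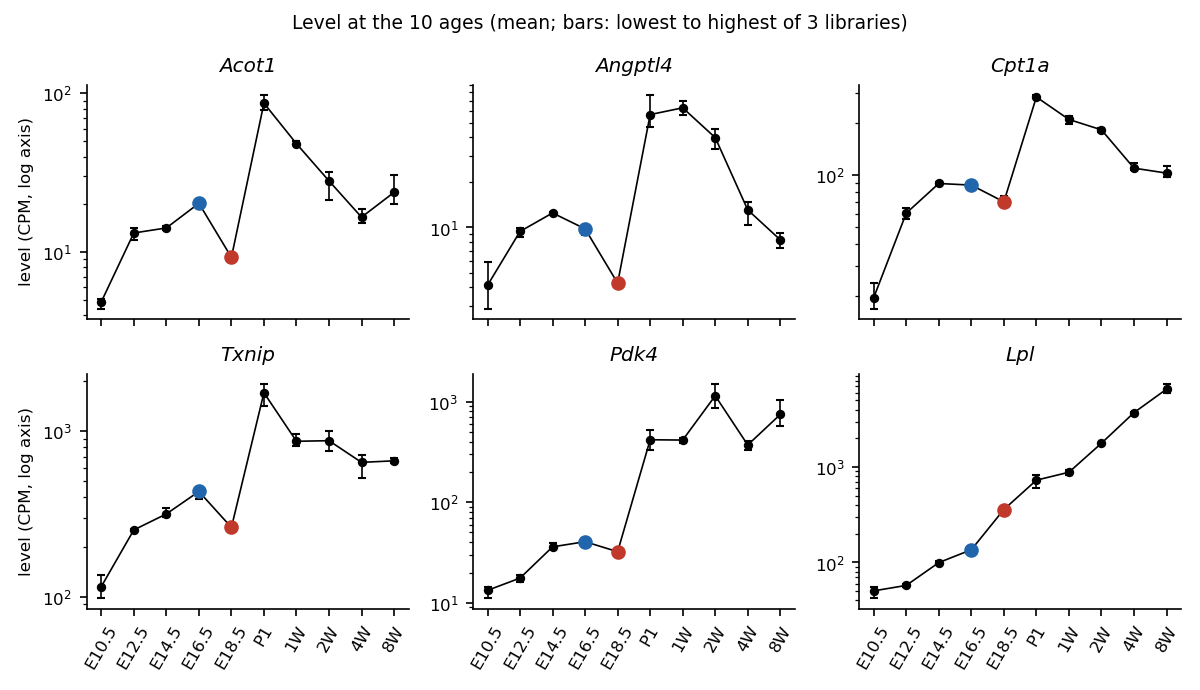
Mean level in CPM (log axis) of 6 metabolic genes at the 10 ages, with bars from the lowest to the highest of 3 libraries, E16.5 in blue and E18.5 in red. Acot1, Angptl4, Cpt1a and Txnip fell from E16.5 to E18.5 and were higher at P1 than at either age, Pdk4, not called between E16.5 and E18.5, was also higher at P1, and Lpl rose from E16.5 to E18.5.

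Of 20 transcription regulators of metabolism, 10 rose and 3 fell (median 0.23). Ppara, the fatty acid receptor itself, rose from 13.5, 13.7 and 13.3 CPM to 26.0, 22.8 and 23.2 CPM (0.83 ± 0.13, adjusted p = 1.6e-05), in the same days in which Acot1 and Angptl4 fell. Perm1, a muscle regulator of mitochondrial genes, rose from 27.6 to 35.1 CPM to 63.8 to 65.4 CPM (1.04 ± 0.10, adjusted p = 3.8e-09). The coactivator Ppargc1a rose by 0.39 ± 0.11 (adjusted p = 0.0087), a call lost without E18.5 replicate 3. Epas1, a hypoxia-inducible factor, rose by 0.63 ± 0.08 (adjusted p = 6.2e-07), and Hif1a by 0.34 ± 0.08 (adjusted p = 0.0027). Klf15, Nrf1 and Rxra fell by 0.38 ± 0.13, 0.38 ± 0.09 and 0.33 ± 0.11. The call of Klf15 was lost with the length trend removed, with RLE size factors and with DESeq2. Both Klf15 and Rxra lost their calls in most fits with 1 library less.

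Of 11 genes of creatine, myoglobin and adenylate metabolism 5 rose and 1 fell, and 7 and 1 with the length trend removed. Ckmt2 went from 33.1, 32.3 and 23.9 CPM to 97.7, 96.8 and 86.5 CPM (1.65 ± 0.14, adjusted p = 8.5e-10), and myoglobin (Mb) from 645, 571 and 589 to 1214, 1094 and 1110 CPM (0.92 ± 0.13, adjusted p = 2.6e-06). The cytosolic creatine kinase Ckm was not called (0.30 ± 0.12, adjusted p = 0.066). Gamt, the last enzyme of creatine synthesis, fell from 10.2 to 11.1 CPM to 4.85 to 5.45 CPM (-1.03 ± 0.14, adjusted p = 1.9e-06), while Slc6a8, the creatine transporter, was among the genes that rose.

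Glucose genes changed in both directions, with 7 of 36 higher and 8 lower (median -0.07), where 13% and 11.2% of all genes tested were. With the length trend removed the numbers were 9 and 6, so the balance of rises and falls was reversed. As analysed, the falls included the fetal transporters. Slc2a1 (GLUT1) was at 102, 97.0 and 101 CPM at E16.5 and at 67.3, 64.6 and 67.1 CPM at E18.5 (-0.59 ± 0.15, adjusted p = 0.0054), and Slc2a3 (GLUT3) fell by 0.79 ± 0.14 (adjusted p = 0.00012). The insulin-responsive Slc2a4 (GLUT4) rose by 0.36 ± 0.10 (adjusted p = 0.0094). Slc2a4 thus took 27.6% ± 0.914 (SD, n = 3) of the counts of Slc2a1 and Slc2a4 at E16.5 and 42.5% ± 1.28 at E18.5, with no overlap (exact permutation p = 0.1, the smallest possible, adjusted p = 0.114). Hk2, the muscle hexokinase, rose by 0.41 ± 0.11 (adjusted p = 0.0079), whereas the glycolytic enolase Eno1 fell from 849 to 920 CPM to 622 to 675 CPM (-0.45 ± 0.09, adjusted p = 0.00025). Pdk1, an inhibitor of pyruvate dehydrogenase, rose by 0.46 ± 0.08 (adjusted p = 1e-04). Of glycogen genes, the branching enzyme Gbe1 rose (0.48 ± 0.07, adjusted p = 6.8e-06) and the primer protein Gyg fell (-0.50 ± 0.07, adjusted p = 2.2e-06). The share of the heart-type lactate dehydrogenase Ldhb among Ldha and Ldhb was 34.6% ± 0.868 and 34.5% ± 1.18 (exact permutation p = 1), a difference whose sign changed with the library left out.

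Of 26 genes of sterol and fatty acid synthesis 13 rose and none fell (median 0.29), and 14 rose with the length trend removed. These genes are driven by SREBP transcription factors when membranes run short of sterol. Idi1, an isoprenoid isomerase, went from 19.1, 21 and 20.7 CPM at E16.5 to 36.7, 43.5 and 39.0 CPM at E18.5 (0.97 ± 0.17, adjusted p = 0.00023). Hmgcs1, the cytosolic synthase at the start of the pathway, went from 64.4, 75.2 and 70.5 to 124, 142 and 113 CPM (0.85 ± 0.11, adjusted p = 8.7e-07). E18.5 replicate 3 had the lowest E18.5 value for Hmgcs1, still above every E16.5 library. The desaturase Scd1 rose from 4.85 to 6.81 CPM to 15.8 to 20.6 CPM (1.54 ± 0.29, adjusted p = 0.00052). Squalene epoxidase (Sqle) and Fasn were not called (adjusted p = 0.11 and 0.45). Hmgcs1 and the SREBP regulator Insig1 (0.78 ± 0.11, adjusted p = 3.6e-06) had both been higher at E14.5 than at E16.5, and both were lower again at P1.

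The promoter of Hmgcs1 is shown because it is the only one of the 8 called synthesis genes with a promoter window in RefSeq that held the letters TCACNCCAC, a sterol regulatory element, or their reverse complement GTGGNGTGA, on either strand. These letters occur in 1.05% of 32851 RefSeq windows of 250 bases before a gene start. The window lies at chr13:119690101-119690350 (GRCm38.p6, plus strand), and the match in capitals begins 137 bases before the start.
Hmgcs1: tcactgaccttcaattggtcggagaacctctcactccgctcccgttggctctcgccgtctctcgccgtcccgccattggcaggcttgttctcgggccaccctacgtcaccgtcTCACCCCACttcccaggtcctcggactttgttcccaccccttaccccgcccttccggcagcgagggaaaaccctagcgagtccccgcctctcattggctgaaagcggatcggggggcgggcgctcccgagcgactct

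**Figure D5:**
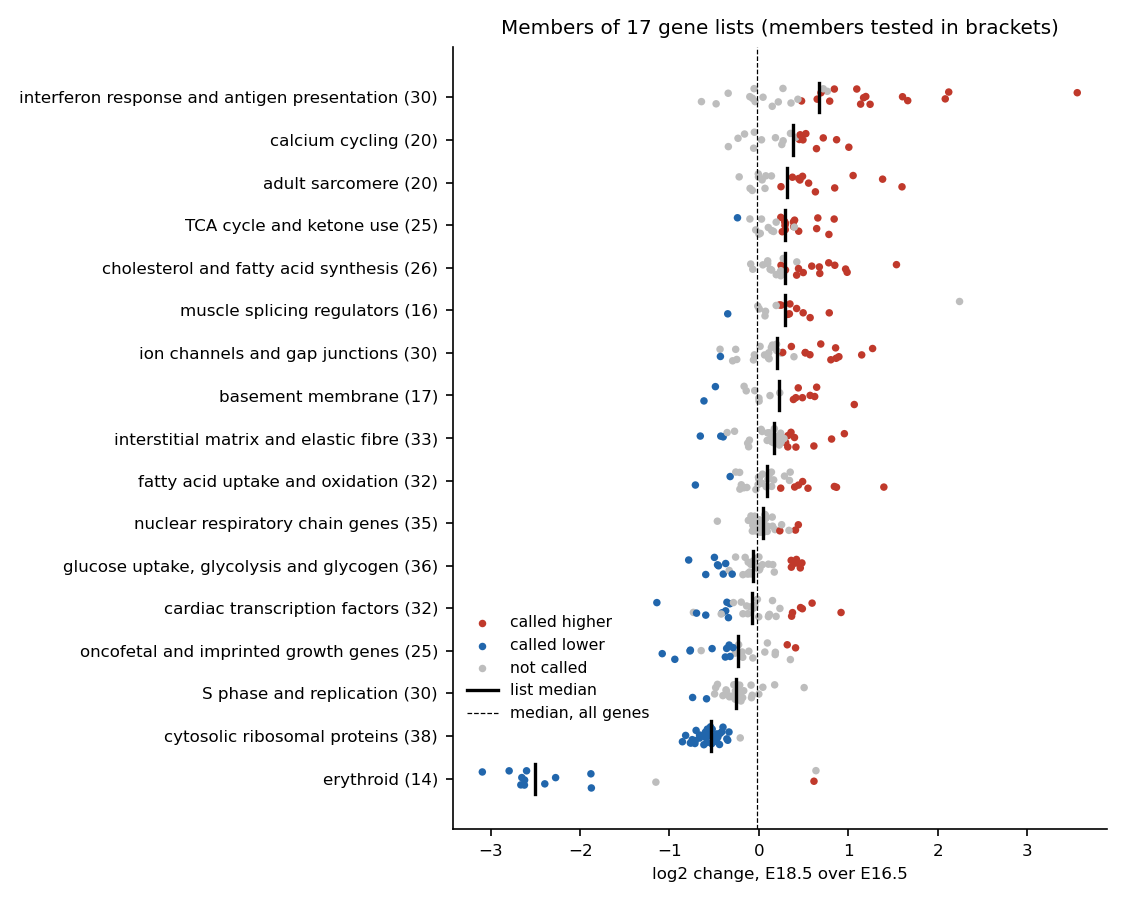
Log2 change from E16.5 to E18.5 of the members of 17 gene lists, with the number tested in brackets. Red and blue points were called higher and lower, grey points were not called, thick bars are list medians and the dashed line is the median over all genes tested (-0.02). Medians run from 0.67 for interferon response genes to -2.50 for erythroid genes.

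Red cell transcripts had the lowest median of the 55 lists. Of 14 erythroid genes, 11 fell and 1 rose (median -2.50), and their summed level was 19035 to 33681 CPM at E16.5 and 2487 to 6836 CPM at E18.5. In bulk tissue fewer cells of a type and less RNA per cell cannot be told apart, and the amount of blood left in a heart at dissection is not recorded in the labels. Hbb-bs, an adult beta globin, was at 10865, 14596 and 8171 CPM at E16.5 and at 1448, 1092 and 3013 CPM at E18.5 (-2.60 ± 0.42, adjusted p = 0.00012). Hba-a1, an adult alpha globin, went from 4524, 6254 and 3289 to 596, 433 and 1210 CPM (-2.65 ± 0.39, adjusted p = 5e-05). Replicate 2 was highest at E16.5 and lowest at E18.5 for both, replicate 3 the reverse, and the ages did not overlap. Reads of the paired genes Hba-a1 and Hba-a2, and Hbb-bs and Hbb-bt, are hard to assign to 1 copy.

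Outside the globins, Alas2, which starts haem synthesis in red cells, fell from 199, 306 and 187 CPM to 37.7, 26.5 and 67.5 CPM (-2.40 ± 0.34, adjusted p = 3.7e-05). Slc4a1, the anion exchanger of the red cell membrane, fell by 2.79 ± 0.35 (adjusted p = 8.6e-06). Embryonic globins of yolk sac cells fell further. Hbb-y was at 16.8, 25.7 and 27.5 CPM and then at 0.244, 0.252 and 0.480 CPM (-6.15 ± 0.46, adjusted p = 8.9e-08), after 760 CPM at E14.5. Hba-x fell by 5.80 ± 0.36 (adjusted p = 1.1e-08). The adult globins had been low at E14.5, where Hbb-bs averaged 1652 CPM, so E16.5 was a peak for them and not a stage of steady decline. The transferrin receptor Tfrc was not called (adjusted p = 0.097). The granulocyte list held no call among 10 genes, and of 9 platelet genes 3 fell, Ppbp, Gp9 and Itga2b, all lower in E18.5 replicate 2 than in the other libraries. The calls of Ppbp and Gp9 were lost with the 6 libraries alone, without E16.5 replicate 2 and without E18.5 replicate 2. That of Itga2b was lost with the 6 libraries alone and a replicate block.

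Alas2 also serves to show a red cell promoter. GATA factors bind AGATAA, and these letters or TTATCT occur in 9.99% of the 32851 windows and in 3 of the 8 erythroid genes that fell and had a window (Hbb-bs, Alas2 and Epb42). The Alas2 window is at chrX:150547167-150547416 (GRCm38.p6, plus strand), and the match in capitals begins 86 bases before the start.
Alas2: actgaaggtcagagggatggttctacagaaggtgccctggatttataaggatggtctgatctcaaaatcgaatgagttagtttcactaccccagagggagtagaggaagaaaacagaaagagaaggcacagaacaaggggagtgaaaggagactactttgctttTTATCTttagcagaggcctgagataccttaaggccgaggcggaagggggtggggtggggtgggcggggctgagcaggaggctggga

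Of 30 interferon response and antigen presentation genes 15 rose and none fell (median 0.67), where 13% of all genes tested rose and 11.2% fell. The same number rose with the length trend removed. Interferons act through a transcription factor complex that includes IRF9 and binds interferon-stimulated response elements in the promoters of antiviral genes. Irf9 was at 10.2, 9.91 and 7.46 CPM at E16.5 and at 22.2, 21.6 and 17 CPM at E18.5 (1.14 ± 0.14, adjusted p = 4.5e-07). Effectors were expressed at low levels. Isg15, a ubiquitin-like modifier, went from 0.653, 0.503 and 0.606 to 2.86, 2.91 and 1.72 CPM (2.09 ± 0.33, adjusted p = 2.5e-05), and Usp18, which removes it, rose by 2.12 ± 0.40 (adjusted p = 2e-04). Ifi44 had the largest change (3.56 ± 0.42, adjusted p = 2.2e-07), from 0.529, 0.391 and 0.0319 CPM to 3.70, 4.91 and 2.85 CPM. E18.5 replicate 3 had the lowest E18.5 value of Irf9, Isg15, Usp18 and Ifi44, and all E18.5 values lay above all E16.5 values.

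Other interferon-inducible genes outside the list also rose. Parp14 went from 5.60, 6.48 and 6.57 to 21.3, 23.6 and 19.9 CPM (1.80 ± 0.12, adjusted p = 5.7e-12), and Gvin1, a giant GTPase, from 2.46, 3.21 and 3.38 to 19.1, 25.2 and 20.3 CPM (2.83 ± 0.21, adjusted p = 8.9e-10). Eif2ak2, the RNA-sensing kinase PKR, rose by 1.08 ± 0.11 (adjusted p = 2.4e-08). Gbp3, Gbp7, Rsad2, Ifih1 and Trim30a, named after their values were seen, rose by 2.51, 1.93, 1.67, 1.52 and 1.89. The classical MHC genes H2-K1 and H2-D1 and their partner B2m were not called (0.44 ± 0.26, 0.36 ± 0.20 and 0.22 ± 0.18), nor was Ifit1 (adjusted p = 0.08). Guanylate-binding proteins, Gvin1, Ifit3 and Oas1a have close relatives in the genome, so single-gene values are uncertain. The call of Ifit3 was lost without E16.5 replicate 1 and without E18.5 replicate 1. Of 8 lymphocyte markers tested 1 rose, and of 10 granulocyte markers none was called.

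Promoters of 3 of these genes are shown with the response element, searched as GAAA, any 2 bases and GAAA, and for the other strand as TTTC, any 2 bases and TTTC. The letters occur in 2.98% of the 32851 windows and in 5 of the 13 genes of the list that rose and had a window (Stat2, Isg15, Ifit3, Oas1a and Bst2). Of all 23 tested members with a window, called or not, 7 held them. Windows are the 250 bases before the start in GRCm38.p6, at chr4:156200819-156201068 for Isg15 (minus strand), chr5:120907526-120907775 for Oas1a (minus strand) and chr19:34583279-34583528 for Ifit3 (plus strand). Capitals mark the matches, of which overlapping ones form 1 run. They begin 66 to 78 bases before the start in Isg15, 14 to 20 in Oas1a and 122 to 156 in Ifit3.
Isg15: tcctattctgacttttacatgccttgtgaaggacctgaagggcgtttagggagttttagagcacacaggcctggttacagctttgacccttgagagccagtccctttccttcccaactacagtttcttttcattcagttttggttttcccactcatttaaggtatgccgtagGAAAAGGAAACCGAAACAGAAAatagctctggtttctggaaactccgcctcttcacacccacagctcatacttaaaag
Oas1a: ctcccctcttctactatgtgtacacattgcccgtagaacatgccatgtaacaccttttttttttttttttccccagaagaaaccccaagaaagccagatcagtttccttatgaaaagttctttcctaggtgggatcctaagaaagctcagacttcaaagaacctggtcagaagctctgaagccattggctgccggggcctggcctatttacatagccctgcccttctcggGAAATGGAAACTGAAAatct
Ifit3: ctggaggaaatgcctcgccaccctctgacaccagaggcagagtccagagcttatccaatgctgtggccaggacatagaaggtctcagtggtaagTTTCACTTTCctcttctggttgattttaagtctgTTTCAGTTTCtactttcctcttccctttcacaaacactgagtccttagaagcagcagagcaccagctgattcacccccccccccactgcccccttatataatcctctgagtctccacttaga

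Of 21 other genes of innate defence 4 rose and 1 fell. Beside C3, the proteases that start the classical complement pathway rose, C1ra by 1.19 ± 0.20 (adjusted p = 6.3e-05) and C1s1 by 1.14 ± 0.23 (adjusted p = 0.00064). Lyz2, the lysozyme of macrophages and granulocytes, fell from 17.6 to 20.7 CPM to 11.1 to 14.9 CPM (-0.55 ± 0.12, adjusted p = 0.00072). Cp rose from 2.26 to 2.88 CPM to 9.20 to 14.2 CPM (2.20 ± 0.20, adjusted p = 3.2e-08). C3 and Cp are also made in quantity by liver and airway. Of 11 liver markers 2 rose, Ahsg and Fgb, the latter a call lost in 5 of the 6 fits with 1 library less. The summed level of all 12 listed liver markers, 11 of them tested, was 37.9 to 46.4 CPM at E16.5 and 57.3 to 60 CPM at E18.5. C3 was at 88.5 CPM in E18.5 replicate 3, where the summed airway markers were at 1.41 CPM, and at 107 CPM in replicate 2, where they were at 34.4 CPM. The part of liver and airway transcripts in these rises was not tested.

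Genes of cytosolic ribosomal proteins fell. Of 38 cytosolic ribosomal protein genes 37 fell (median -0.54), and for all 38 every E18.5 library lay below every E16.5 library, against 24% of all genes. Together they took 1.95% to 2.0% of the counts at E16.5 and 1.27% to 1.39% at E18.5. These are short transcripts, the class in which falls were most frequent, and the level of Rn7sk was also lower in the E18.5 libraries, without being called (adjusted p = 0.39). With the length trend removed 29 fell, with RLE size factors 35, and without E18.5 replicate 3 24. Rpl3 went from 688, 669 and 620 to 498, 480 and 455 CPM (-0.46 ± 0.08, adjusted p = 5e-05), and Rps14 from 711, 683 and 633 to 386, 369 and 365 CPM (-0.85 ± 0.28, adjusted p = 0.03), a call lost with the length trend removed and in 5 of the 6 fits with 1 library less. Ftl1, the iron-storage ferritin light chain, another short transcript, fell by 0.92 ± 0.12 (adjusted p = 1.4e-06). Of 32 antioxidant genes, 5 rose and 8 fell, and 6 and 5 with the length trend removed. Gpx1, a glutathione peroxidase abundant in red cells, fell from 173, 209 and 154 to 88.2, 78.2 and 84.2 CPM (-1.10 ± 0.14, adjusted p = 1.5e-06).

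Cell division genes gave few calls in the fit to all ages and many in a fit to the 6 libraries alone. Of 30 S phase genes 2 fell, E2f2 and Chaf1b, and none rose (median -0.25). For 20 of the 30 every E18.5 library was below every E16.5 library, against 24% of all genes. With the 6 libraries alone 21 fell and 1 rose, and the call of Chaf1b was lost in 5 of the 6 fits with 1 library less. Mcm5, a subunit of the replicative helicase, was at 84.7 to 97.0 and then 65.8 to 78.3 CPM (-0.31 ± 0.28, adjusted p = 0.47). Its P1 mean was 21.4 CPM. Of 30 mitosis genes 1 rose and 1 fell, against 9 and 14 with the 6 libraries alone. Cenpf, a kinetochore protein with long exons, rose from 50.7, 53.8 and 53.9 to 67.7, 79.6 and 90.3 CPM (0.58 ± 0.13, adjusted p = 0.0019), a call lost with the length trend removed. Mki67 (0.48 ± 0.30, adjusted p = 0.27) and Cdk1 (-0.50 ± 0.30, adjusted p = 0.26) were not called. Of 16 genes that hold back division 2 rose and 3 fell (median -0.06), which is 12.5% and 18.8%, against 13% and 11.2% of all genes tested. With the length trend removed the numbers were 2 and 4. As analysed, the falls were Cdkn1c, Ccng2 and Btg1. Ccng1, a p53 target, rose from 129, 141 and 145 to 231, 234 and 251 CPM (0.79 ± 0.11, adjusted p = 5.5e-06), and Rb1 by 0.47 ± 0.10 (adjusted p = 0.00053).

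Fetal growth genes fell, with 10 of 25 lower and 2 higher (median -0.23), and 12 and 0 with the length trend removed. H19, an imprinted RNA among the most abundant transcripts of the fetal heart, was at 7281, 6795 and 6636 CPM at E16.5 and at 3792, 3604 and 3403 CPM at E18.5 (-0.94 ± 0.10, adjusted p = 3.6e-08). Cdkn1c, the imprinted inhibitor of the cell cycle, fell from 178, 182 and 195 to 91.6, 86.8 and 83.9 CPM (-1.08 ± 0.15, adjusted p = 7.7e-06). Ndn, another imprinted gene, fell by 0.77 ± 0.13 (adjusted p = 8.9e-05) and Hmga2, a fetal chromatin protein, by 0.77 ± 0.14 (adjusted p = 0.00021). Igf2, the growth factor that shares its locus with H19, was lower in each E18.5 library (1570 to 1594 and then 1310 to 1415 CPM) without being called (-0.23 ± 0.10, adjusted p = 0.11). The rises of Meg3 and Igf1r were lost with the length trend removed and with library size alone, and in 4 and all 6 of the fits with 1 library less. Outside the list, Ghr, the growth hormone receptor, rose by 0.52 ± 0.09 (adjusted p = 7.8e-05), and Socs2 and Cish, which cytokine receptors induce, rose from 10.8 to 14.3 CPM to 32.6 to 35.7 CPM (1.42 ± 0.12, adjusted p = 8.9e-10) and from 21.1 to 22.9 CPM to 40.4 to 44.0 CPM (0.94 ± 0.11, adjusted p = 1.6e-07). These 3 were named after their values were seen.

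Core cardiac transcription factors moved both ways, 6 of 32 higher and 8 lower, and 4 and 5 with the length trend removed. Tead1, the factor of the Hippo pathway, rose most, from 115, 120 and 127 CPM to 222, 216 and 248 CPM (0.92 ± 0.11, adjusted p = 1.8e-07). Myocd, a coactivator of contractile genes, rose by 0.60 ± 0.09 (adjusted p = 1.3e-05) and Prox1 by 0.49 ± 0.11 (adjusted p = 0.0013). The falls were Hand1, Hand2, Nr2f1, Gata5, Tbx2, Hey1, Hey2 and Nkx2-5. Hand1, an early ventricular factor, fell from 2.15 to 3.67 CPM to 1.08 to 1.61 CPM (-1.14 ± 0.22, adjusted p = 0.00027), Nr2f1 by 0.70 ± 0.20 (adjusted p = 0.011) and Gata5 by 0.59 ± 0.14 (adjusted p = 0.0014). Gata4 was not called (-0.18 ± 0.07, adjusted p = 0.055). Among 16 splicing regulators of muscle 9 rose and 1 fell. Mbnl1 and Mbnl2, which switch fetal to adult exons, rose by 0.50 ± 0.09 and 0.57 ± 0.07 (adjusted p = 6.1e-05 and 1e-06). Ptbp1 fell by 0.35 ± 0.08 (adjusted p = 0.0011). With the length trend removed 5 rose and 1 fell.

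Of 25 glucocorticoid response genes 3 rose and 3 fell, shares near the 13% and 11.2% of all genes tested, and the glucocorticoid receptor Nr3c1 was among the rises (0.40 ± 0.08, adjusted p = 0.00032). Klf9 rose 3.85-fold, whereas the classical targets Fkbp5 (0.19 ± 0.26, adjusted p = 0.67) and Per1 (-0.15 ± 0.12, adjusted p = 0.39) were not called and Tsc22d3 fell by 0.34 ± 0.10 (adjusted p = 0.013). The call of Tsc22d3 was lost without E16.5 replicate 2 and without E18.5 replicate 3. Of 15 genes of the thyroid hormone axis 6 rose and 2 fell, and the rises included Myh6, Atp2a2 and Klf9, already described above. The receptor Thrb rose from 0.921 to 1.72 CPM to 1.99 to 2.46 CPM (0.91 ± 0.29, adjusted p = 0.026), and the more abundant Thra fell by 0.26 ± 0.09 (adjusted p = 0.023), each call lost in several fits with 1 library less. Crym, a thyroid hormone binding protein, fell by 2.37 ± 0.54 (adjusted p = 0.0014), from 0.653 to 0.782 CPM to 0.0564 to 0.183 CPM.

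Of 21 natriuretic, renin-angiotensin and adrenergic genes 8 rose and none fell, and 3 rose without E18.5 replicate 3. Nppa, atrial natriuretic peptide, rose from 625 to 757 CPM to 986 to 1103 CPM (0.60 ± 0.12, adjusted p = 0.00048), while Nppb was not called (0.63 ± 0.39, adjusted p = 0.26). Of 19 clock genes 7 rose and 2 fell, Npas2 by 0.92 ± 0.21 (adjusted p = 0.0015) and Clock by 0.75 ± 0.11 (adjusted p = 7e-06), and 5 rose with the length trend removed. The hour of collection is not in the labels. Among 16 hypoxia genes 4 rose and 2 fell, with Egln3 (0.64 ± 0.12, adjusted p = 0.00018) and Vegfa (0.39 ± 0.10, adjusted p = 0.0032) higher and Slc2a1 and Ndrg1 lower. Of 33 morphogen genes 7 rose and 7 fell: Fgf9 and Fgf16 rose by 0.70 ± 0.16 and 1.15 ± 0.29, and Sfrp2, Rspo3, Wnt2 and the neuregulin receptor Erbb2 fell by 0.66, 0.60, 0.69 and 0.56. The calls of Wnt2 and Rspo3 were lost with the length trend removed and in most fits with 1 library less.

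Of 33 interstitial matrix genes 9 rose and 3 fell, but 5 rose and 4 fell with the length trend removed. With library size alone 4 rose, as they did without E16.5 replicate 1, E18.5 replicate 1 or E18.5 replicate 2, and 5 without E16.5 replicate 2 or 3. Of 17 basement membrane genes 8 rose and 2 fell, and 7 and 2 with the trend removed. Lama2, the laminin chain of muscle, was at 230, 229 and 230 CPM at E16.5 and at 376, 348 and 356 CPM at E18.5 (0.65 ± 0.07, adjusted p = 3.9e-08). Col15a1 rose from 89.7 to 99.0 CPM to 157 to 174 CPM (0.81 ± 0.12, adjusted p = 1.3e-05) and Col5a3 from 4.20 to 8.41 CPM to 18.3 to 21.2 CPM (1.71 ± 0.21, adjusted p = 4.6e-06). Col18a1, the source of endostatin, fell by 0.61 ± 0.12 (adjusted p = 0.00025) and Mfap2, a microfibril protein, by 0.66 ± 0.11 (adjusted p = 5.1e-05). The rise of Col1a1 (0.41 ± 0.14, adjusted p = 0.024) was lost with library size alone and in most fits with 1 library less. Col3a1 was not called (0.17 ± 0.10, adjusted p = 0.21). Of 13 fibroblast markers 5 rose and 2 fell, led by Dpep1, from 8.58 to 12 CPM to 20.5 to 25.1 CPM (1.20 ± 0.22, adjusted p = 0.00039), and Mfap5 (0.96 ± 0.14, adjusted p = 9.4e-06).

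Markers of vessels and of macrophages were called in both directions, where 13% of all genes tested rose and 11.2% fell. Of 13 mural markers 4 rose and 1 fell. Rgs5, a pericyte gene, went from 50.5, 57.7 and 56.0 to 103, 146 and 95.7 CPM (1.07 ± 0.11, adjusted p = 3.5e-08), and Myh11, smooth muscle myosin, from 33.8, 31.4 and 28.2 to 84.5, 118 and 60.2 CPM (1.49 ± 0.27, adjusted p = 4e-04). Cnn1, calponin, which fetal heart muscle also expresses, fell by 0.68 ± 0.10 (adjusted p = 5.3e-06). The E18.5 libraries differed more among themselves in Rgs5 and Myh11 than the E16.5 libraries did, with replicate 2 highest, the library that also held the most airway transcript. Of 15 blood endothelial markers 5 rose and 1 fell, among them Flt1 (0.54 ± 0.10, adjusted p = 8.9e-05) and Vwf (0.50 ± 0.10, adjusted p = 0.00071), the latter lost with the length trend removed. Of 9 lymphatic markers Lyve1 and Prox1 rose (22.2%) and Ccl21a fell (11.1%). Ccl21a went from 14.2 to 15.7 CPM to 5.67 to 7.96 CPM (-1.17 ± 0.16, adjusted p = 4.7e-06).

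Of 15 macrophage markers 4 rose and 1 fell (median -0.04), where 13% and 11.2% of all genes tested did. Folr2, Cx3cr1, C1qa, C1qb and C1qc, which resident macrophages also express, were not called. The rises were those of Cd163, from 0.478 to 1.20 CPM to 2.62 to 3.5 CPM (1.90 ± 0.40, adjusted p = 0.0016), F13a1 (0.96 ± 0.21, adjusted p = 0.0016), Lyve1 (0.85 ± 0.14, adjusted p = 5e-05) and Mrc1 (0.73 ± 0.10, adjusted p = 2.5e-06). Lyve1 is also a lymphatic gene. Csf1r, the growth factor receptor of all macrophages, fell from 32.9 to 38.7 CPM to 25.2 to 29.3 CPM (-0.40 ± 0.09, adjusted p = 0.002). Of 7 mast cell genes 4 rose, with Tpsb2, a tryptase, going from 2.42 to 2.85 CPM to 5.34 to 6.80 CPM (1.19 ± 0.24, adjusted p = 0.00039), and 1 rose without E16.5 replicate 1. Of 15 genes of Schwann cells and neurons 4 rose and none fell (median 0.82). Prph, peripherin of peripheral neurons, went from 0.746, 0.754 and 0.287 to 3.38, 4.43 and 2.60 CPM (2.53 ± 0.46, adjusted p = 0.00012), and Tubb3 and Stmn2 rose by 1.37 ± 0.24 and 1.20 ± 0.25.

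Finally the step was set against its neighbours, E14.5 to E16.5 and E18.5 to P1. Each of these shares a library group with it, E16.5 or E18.5, so a chance deviation of the shared group makes steps differ in opposite directions. Against the preceding step the change was higher for 1913 genes (9.92%) and lower for 2050 (10.6%), and against the following step for 2596 (13.5%) and 2311 (12%). The first pair was 928 and 823 without E16.5 replicate 1 and 1225 and 1078 without E16.5 replicate 2, and the second 1755 and 1352 without E18.5 replicate 3. Klf9 averaged 2.49 CPM at E14.5 and 62.1 CPM at P1, with a difference from the preceding step of 1.79 ± 0.24 (adjusted p = 6.4e-06). The means of Ttn were 25038, 25031, 52020 and 54141 CPM from E14.5 to P1, and it differed from both neighbouring steps (1.06 ± 0.29, adjusted p = 0.0099, and 1.00 ± 0.28, adjusted p = 0.0085). Myh6 differed from the preceding step (1.11 ± 0.19, adjusted p = 0.00015) but was not shown to differ from the following one (0.31 ± 0.19, adjusted p = 0.25). Gvin1, Samd9l and Eif2ak2, all interferon-inducible, were lower at P1 than at E18.5, at 8.58, 4.64 and 13.3 CPM. Gvin1 and Samd9l were among the largest differences from the following step, a choice that favours a lower P1 level. Whether the interferon list as a whole was lower at P1 was not tested. C3 and Cp averaged 227 and 35.0 CPM at P1.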

How the data were processed

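Messenger RNA of heart samples was sequenced in 30 libraries, 3 at each of 10 ages. Per the submitters' processing notes, fastp 0.18.0 and STAR 2.5.3a were used, with the builds GRCm38 and mm10. For the counting tool, its annotation and its use of strand, the sources used here give no name. The authors deposited 1 table of values per gene and library, read here as estimated counts from the values themselves, since its header names no unit. Of these estimated counts, as deposited, 6.94% are not whole (tolerance 1e-06), and all were rounded. Of 48820 genes, 48144 were given a symbol from GENCODE M21, and genes without one held 0.225% of the counts.

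Counts of all 30 libraries were fitted with edgeR 4.0.16 (R 4.3.3) as 10 age means, with TMM scaling, filterByExpr and robust quasi-likelihood tests on 20 residual degrees of freedom. P-values were adjusted by Benjamini-Hochberg over 19280 genes, with a threshold of 0.05. SEs were derived from each log2 change and its F statistic. Steps were compared by contrasts in the same fit. Isoform shares used exact permutation tests. The scripts were tested on simulated data. The depth of the 6 libraries, 25550620 to 37783599 counts, sets the precision, which is lowest for genes near or under 1 CPM.

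The members and lists were chosen with earlier results of these data known. Named genes were the 12 largest rises and falls with no overlap and at least 10 CPM, up to 3 called genes each way in each list, a panel, and the 5 largest differences each way between steps. The following were named after their values were seen: Acadl, Acadm, Acadvl, Acot2, B2m, Casq2, Cish, Cox6a2, Cox8b, Cycs, Dld, Eno1, Epas1, Erbb2, Fasn, Ftl1, Gbp3, Gbp7, Ghr, H2-D1, H2-K1, Hcn4, Hk2, Hmgcs1, Ifih1, Ifit1, Ifit3, Insig1, Irf9, Isg15, Lyve1, Mcm5, Mrc1, Muc5b, Mybpc3, Ndn, Ndufs1, Nr3c1, Oas1a, Pdha1, Per1, Rn7sk, Rpl3, Rps14, Rsad2, Scgb3a1, Slc8a1, Socs2, Sqle, Tfrc, Thra, Tnnt1, Trdn, Trim30a and Xist. Alternatives were other scalings and filters, DESeq2 1.42.0, the 6 libraries alone, a replicate block, a sex term and leaving out each library. Removal of the exon length trend and a fit to protein-coding genes without red cell genes were added after seeing the data. Some genes that met the naming rule are not reported here. Promoter windows came from RefSeq (GRCm38.p6).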

Additional observations from a re-analysis of the deposited data

Results flagged for a closer look

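The following genes changed from E16.5 to E18.5 by an amount that differed from the change over a neighbouring step, by a contrast in the same edgeR fit, with 3 libraries per age. Each pair of steps shares 3 libraries, so a deviation of the shared libraries enters both. Against the step from E14.5 to E16.5, the log2 difference was 3.25 for Gvin1, 2.69 for Xirp2, 2.02 for Eif2ak2, 1.88 for Pirt, an ion channel regulator of sensory neurons, and 1.87 for Dsc2, a desmosomal cadherin. It was -5.36 for Hbb-bs, -5.33 for Hbb-bt, -4.93 for Alas2, -4.83 for Hba-a1 and -4.81 for Hba-a2.

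Against the step from E18.5 to P1, the difference was 4.16 for Gvin1, 2.84 for Fam111a, a replication-linked protease, 2.48 for Samd9l, 2.43 for Cenpf and 2.4 for Xirp2. It was -6.31 for Hbb-y, -4.36 for Acot1, -4.19 for Slc4a1 and -3.43 for Txnip. These were among the 5 largest differences each way among genes that met the naming rule. The call of Fam111a from E16.5 to E18.5, part of that rule, was lost with library size alone, with a sex term and in most fits with 1 library less.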

How the results depend on the processing

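With 1 library left out in turn, 3104 (without E18.5 replicate 3) to 4077 genes were called, with 1198 to 1856 lower, and no gene called from E16.5 to E18.5 and named in the text changed direction in any alternative run. The 6 libraries alone gave 3498 falls. Differences from the preceding step ranged from 1751 (without E16.5 replicate 1) to 3718 genes, 928 to 1776 of them higher and 823 to 1942 lower, with 1360 lower under library size alone. Differences from the following step ranged from 3107 (without E18.5 replicate 3) to 5057 genes, with 1352 to 2325 lower. Replicate numbers did not pair the libraries, since deviations of same-numbered libraries correlated at -0.004, -0.09 and 0.05. A replicate block gave 4888 calls, and 7428 with 3696 lower in the 6 libraries alone, where the calls of Hbb-bs, Hba-a1 and Alas2 were lost. Per exon length, the share of Myh6 rose by 24.8 percentage points and that of Cpt1b by 0.759. The difference in the share of Ldhb was 0.006 points for summed counts and -0.642 to 0.533 with 1 library left out. The cause of these shifts was not tested. Depth limits genes under 1 CPM, such as Ifi44 and Crym at their lower age.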
